A study of Mus musculus with 9 samples.

Results

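The Ly49 receptors are lectin-like surface receptors of natural killer (NK) cells that are encoded side by side, as the Klra genes, in the NK gene complex. The genes described here are Klra3, Klra4, Klra5, Klra7, Klra8 and Klra9, which encode Ly49C, Ly49D, Ly49E, Ly49G, Ly49H and Ly49I. They were taken by symbol from the array annotation and make up 6 genes in a series where 19938 genes were tested. Of these 6 genes, 3 (Klra3, Klra5 and Klra8) had a transcript cluster of their own, a transcript cluster being the set of probes that the array reads as 1 transcript. Klra4, Klra7 and Klra9 appeared only in clusters that carry several Klra symbols, so they have no value of their own. In all, 7 of the 35512 clusters carried a symbol of these 6 genes, and 10 carried any Klra symbol.

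Transcripts of blood monocytes from Ccr2-/-, Ccl2-/- and wild type mice were read on Affymetrix Mouse Gene ST arrays. The mice were of the Balb/c strain, between 14 and 18 weeks old, and bore no tumor. There were 3 arrays for each genotype, and each array held RNA pooled from 5 mice, so every p-value below measures the spread between pools and not between mice. Ccr2 encodes the receptor for the chemokine CCL2, which Ccl2 encodes, and the comparisons ask how the loss of either changes the transcripts of circulating monocytes. CD11b-positive cells were selected magnetically after antibodies to B220, CD4, CD8, CCR3, MHC class II and Ly-6G had removed other cells. None of the listed antibodies targets a marker particular to NK cells, and mature NK cells of the mouse carry CD11b, although the study's definition of a monocyte asks for cells without NK1.1. Both genes are deleted throughout the body and not in monocytes alone.

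Most Ly49 proteins bind MHC class I molecules on other cells. The inhibitory members, among them Ly49C, Ly49E, Ly49G and Ly49I, carry a tyrosine motif in the cytoplasm that recruits the phosphatase SHP-1, and a cell with normal MHC class I then holds the NK cell back. The activating members Ly49D and Ly49H lack this motif and signal through the adaptor DAP12, and Ly49H is known for recognising a protein of mouse cytomegalovirus. Single NK cells express different combinations of these genes. The content of the cluster differs between mouse strains, and the BALB/c haplotype is shorter than that of C57BL/6 and lacks the genes for Ly49D and Ly49H. A value at a cluster annotated to Klra8 or Klra4 is therefore given by its annotation only, and whether its probes read the transcript of another Ly49 gene in these Balb/c mice was not tested. Which of the other Klra genes these mice carry, Klra6 and Klra10 among them, was not checked either.

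The promoter windows below give the sequence of these genes around their annotated starts. Most of each window lies before the transcript that the array reads, and no transcript or probe sequence was compared. The sequences are from RefSeq, build GRCm38.p6 of the C57BL/6J mouse. They run from 250 bases before to 50 bases after the annotated start, on the minus strand of chromosome 6. Capitals mark the letters TATAAA or, on the opposite strand, TTTATA. The windows are chr6:130337577-130337876 for Klra3, chr6:130193063-130193362 for Klra9, chr6:129913175-129913474 for Klra5 and chr6:130129849-130130148 for Klra8. The window of Klra2, chr6:131247313-131247612, is printed as the family member whose level moved the other way.
Klra3: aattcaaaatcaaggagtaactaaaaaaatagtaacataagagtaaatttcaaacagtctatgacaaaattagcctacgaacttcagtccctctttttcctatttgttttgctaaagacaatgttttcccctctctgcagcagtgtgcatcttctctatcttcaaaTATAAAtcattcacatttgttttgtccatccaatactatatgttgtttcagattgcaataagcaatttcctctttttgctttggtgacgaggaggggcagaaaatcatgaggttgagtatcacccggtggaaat
Klra9: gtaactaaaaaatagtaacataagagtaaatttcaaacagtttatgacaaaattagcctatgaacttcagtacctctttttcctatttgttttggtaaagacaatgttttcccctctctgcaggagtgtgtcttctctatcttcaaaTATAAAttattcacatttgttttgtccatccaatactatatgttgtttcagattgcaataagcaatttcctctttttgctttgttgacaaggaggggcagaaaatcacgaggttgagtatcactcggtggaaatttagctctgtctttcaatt
Klra5: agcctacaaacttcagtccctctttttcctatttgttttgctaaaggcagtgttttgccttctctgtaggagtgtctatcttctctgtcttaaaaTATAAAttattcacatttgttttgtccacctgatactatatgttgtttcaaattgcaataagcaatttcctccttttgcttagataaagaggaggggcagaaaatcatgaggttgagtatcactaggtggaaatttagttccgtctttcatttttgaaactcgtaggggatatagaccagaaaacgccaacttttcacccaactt
Klra8: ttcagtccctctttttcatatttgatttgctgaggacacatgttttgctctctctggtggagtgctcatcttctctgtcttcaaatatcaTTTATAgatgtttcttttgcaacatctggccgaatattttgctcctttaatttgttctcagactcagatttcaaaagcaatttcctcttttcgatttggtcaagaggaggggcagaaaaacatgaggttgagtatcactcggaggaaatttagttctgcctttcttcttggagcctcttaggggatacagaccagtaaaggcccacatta
Klra2: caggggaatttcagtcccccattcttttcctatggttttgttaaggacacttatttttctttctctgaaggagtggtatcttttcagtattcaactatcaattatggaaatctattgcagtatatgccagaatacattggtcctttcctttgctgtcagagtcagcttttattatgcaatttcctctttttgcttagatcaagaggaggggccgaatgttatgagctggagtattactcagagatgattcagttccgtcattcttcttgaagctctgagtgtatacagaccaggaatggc
The windows of Klra3 and Klra9 were 85% identical when aligned over their whole length, while that of Klra3 was 55.5% identical to Klra5 and 48.2% to the printed window of Klra8. Positions facing a gap, also at the window ends, count as not identical, so a shift between annotated starts lowers the percentage. The printed window of Klra8 and its other annotated window were only 65.3% identical. TATAAA begins at -84 from the start in Klra3 and at -155 in Klra5. The percentages therefore do not rank how alike the genes are. Klra4 and Klra8, the activating pair, were 86% identical, and no cluster carries both symbols. By this measure Klra5 was closest to Klra6 at 76%, and Klra8 and Klra2 were 70.7% identical. TATAAA on either strand was found in 8 of 13 annotated Klra windows (Klra7 and Klra8 have more than 1 start), against 13.6% of the 32851 windows of this length in the mouse. The Klra windows derive from one another, so they are not independent cases. The Runx core TGTGGT (or ACCACA) was in 1 of 13 Klra windows and 16.8% of all windows, the T-box letters TCACACC (or GGTGTGA) in 1 of 13 and 3.98%, and the Ets letters AGGAAGT (or ACTTCCT) in 0 of 13 and 9.35%. In the gene order of chromosome 6 the Klra genes from Klra17 to Klra1 follow one another with no other protein-coding gene between them, and Klra2 lies apart behind 5 other protein-coding genes.

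The deposited values are linear intensities, and log2 was taken for the tests. The array medians lay between 324.1 and 355.1, except for a median of 430.8 on Ccl2-/- replicate 1, and this array also correlated least with its own group (0.972, against 0.981 to 0.994 for the other arrays), so results with Ccl2-/- cells were also computed without it. Ccr2-/- cells had 0.0797-fold the wild type level of Ccr2 itself (limma adjusted p = 4.33e-06), as their label says. The monocyte markers Csf1r, Fcgr3 and Cd14 had mean log2 levels of 13.155, 12.314 and 9.662 in wild type cells. In Ccr2-/- cells they were 0.776-fold, 0.639-fold and 0.386-fold of wild type (limma adjusted p = 0.00964, 0.00276 and 0.00151), where 8.38% of all genes were called lower. Counts over all listed monocyte and NK cell markers are given below.

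In Ccr2-/- against wild type monocytes, all 3 Ly49 genes with a cluster of their own were higher, between 2.02-fold and 4.08-fold. Here and below, Klra8 is counted among these 3 by its annotation only, since the BALB/c haplotype lacks the gene for Ly49H. Klra5, which encodes the inhibitory receptor Ly49E, known from fetal NK cells, had the largest fold of the 3. The 4 clusters annotated to several Klra symbols, Klra4, Klra7 and Klra9 among them, were also all higher. Over all genes tested, 4.91% were called higher in this comparison, and over all clusters 2.87%.

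Klra3, which encodes the inhibitory receptor Ly49C, had intensities of 8344, 7403 and 7598 on the 3 Ccr2-/- arrays, 5994, 5543 and 4982 on the Ccl2-/- arrays, and 3660, 3890 and 3983 on the wild type arrays. No array of one genotype overlapped another genotype, with Ccr2-/- highest, Ccl2-/- between and wild type lowest. On the log2 scale this was 12.92 ± 0.09 in Ccr2-/- and 11.91 ± 0.06 in wild type cells (SD, n = 3 arrays each). The fold change was 2.02 (95% interval 1.76 to 2.32, limma adjusted p = 0.000547 over all genes).

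Klra5 had intensities of 831, 809 and 685 on the Ccr2-/- arrays, 164, 301 and 280.0 on the Ccl2-/- arrays, and 150, 213 and 212 on the wild type arrays. The Ccr2-/- arrays stood far above the other 6, and the Ccl2-/- and wild type arrays overlapped. Its log2 level was 9.59 ± 0.15 in Ccr2-/- and 7.57 ± 0.29 in wild type cells (SD, n = 3 arrays each), a fold change of 4.08 (95% interval 2.80 to 5.93, limma adjusted p = 0.00109).

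Klra8, annotated as the activating receptor Ly49H, had intensities of 748, 753 and 659 on the Ccr2-/- arrays, 271, 415 and 358 on the Ccl2-/- arrays, and 309, 281 and 311 on the wild type arrays. As for Klra5, the Ccr2-/- arrays were above all others, and Ccl2-/- and wild type overlapped. The log2 level was 9.49 ± 0.11 in Ccr2-/- and 8.23 ± 0.08 in wild type cells (SD, n = 3 arrays each), which is 2.39-fold (95% interval 1.90 to 3.01, limma adjusted p = 0.00107).

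**Figure D1:**
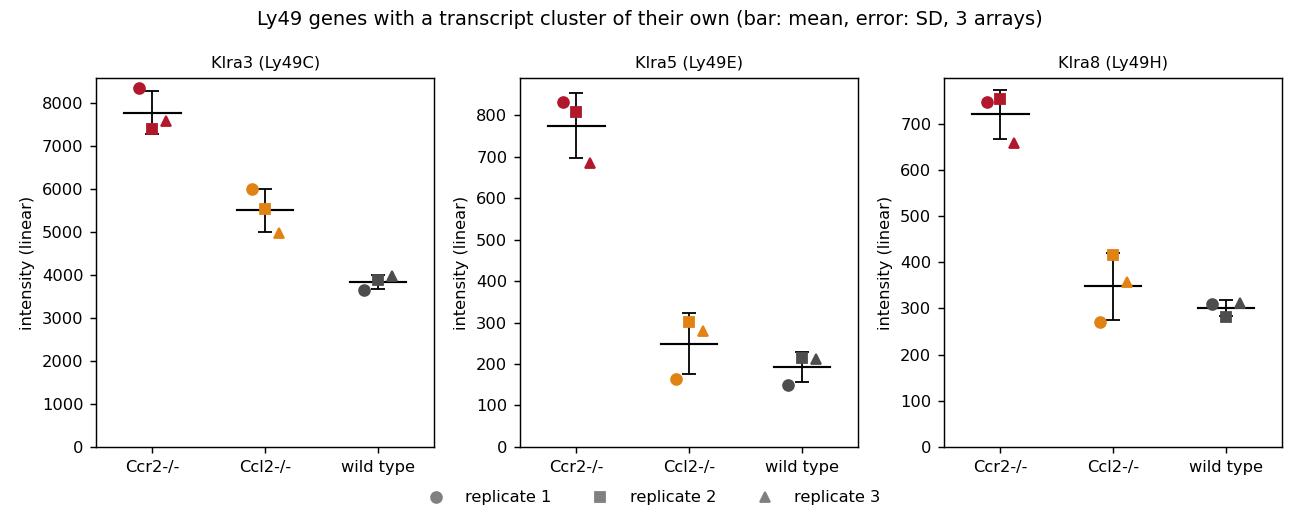
Linear intensity (y axis, from 0, a separate scale in each panel) of the 3 Ly49 genes with a cluster of their own on each array of Ccr2-/-, Ccl2-/- and wild type monocytes; bars are means and error bars SD of 3 arrays. For each gene the lowest Ccr2-/- array lies above every array of the other genotypes, and for Klra5 and Klra8 the first Ccl2-/- replicate lies among or below the wild type arrays.

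The log2 changes of the 3 genes in Ccr2-/- cells had a median of 1.26, and that of all genes tested was 0.01. Their sizes were then set against each other, array by array. The log2 change of Klra5 exceeded that of Klra3 by 1.01 and that of Klra8 exceeded that of Klra3 by 0.24, and Klra8 minus Klra5 was -0.77. In each of these pairs the within-array differences of the Ccr2-/- arrays did not overlap those of the wild type arrays, and the exact permutation p was 0.1 (two-sided, n = 3 against 3), the smallest that this design allows. These differences therefore cannot pass 0.05 here, whatever their size.

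The cluster annotated to Klra1, Klra4, Klra7, Klra13-ps, Klra16 and Klra23 is the one cluster whose annotation names Klra4 (activating Ly49D, a gene that the BALB/c haplotype lacks) or Klra7 (inhibitory Ly49G). It had intensities of 1326, 1138 and 1173 on the Ccr2-/- arrays, 782, 794 and 674 on the Ccl2-/- arrays, and 441, 392 and 481 on the wild type arrays. The genotypes did not overlap, and the fold change of Ccr2-/- over wild type was 2.77 (95% interval 2.32 to 3.30, limma adjusted p = 0.00149 over all clusters). Which of its 6 symbols carries the difference cannot be told apart.

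Klra9 (inhibitory Ly49I) is read in 3 shared clusters, always together with Klra3. The cluster of Klra3, Klra5 and Klra9 had intensities of 1874, 1619 and 1775 on the Ccr2-/- arrays, 1143, 1045 and 935 on the Ccl2-/- arrays, and 679, 705 and 727 on the wild type arrays. Its fold change of Ccr2-/- over wild type was 2.49 (95% interval 2.14 to 2.90, limma adjusted p = 0.00131). The cluster of Klra3, Klra8, Klra9, Klra10 and Klra14-ps had 5732, 5342 and 5338 on the Ccr2-/- arrays, 4024, 3949 and 3315 on the Ccl2-/- arrays, and 2372, 2673 and 2742 on the wild type arrays. Its fold in Ccr2-/- over wild type cells was 2.11 (limma adjusted p = 0.00206). The cluster that adds Klra5 and Klra6 to these symbols had 4735, 4415 and 4319.7 on the Ccr2-/- arrays, 3156, 3018 and 2711 on the Ccl2-/- arrays, and 1998, 2007 and 2164 on the wild type arrays, with 2.18-fold in Ccr2-/- cells (limma adjusted p = 0.00131). In all 3 clusters the genotypes stood in the same order without overlap, and the part of Klra9 in them cannot be told apart from that of Klra3.

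**Figure D2:**
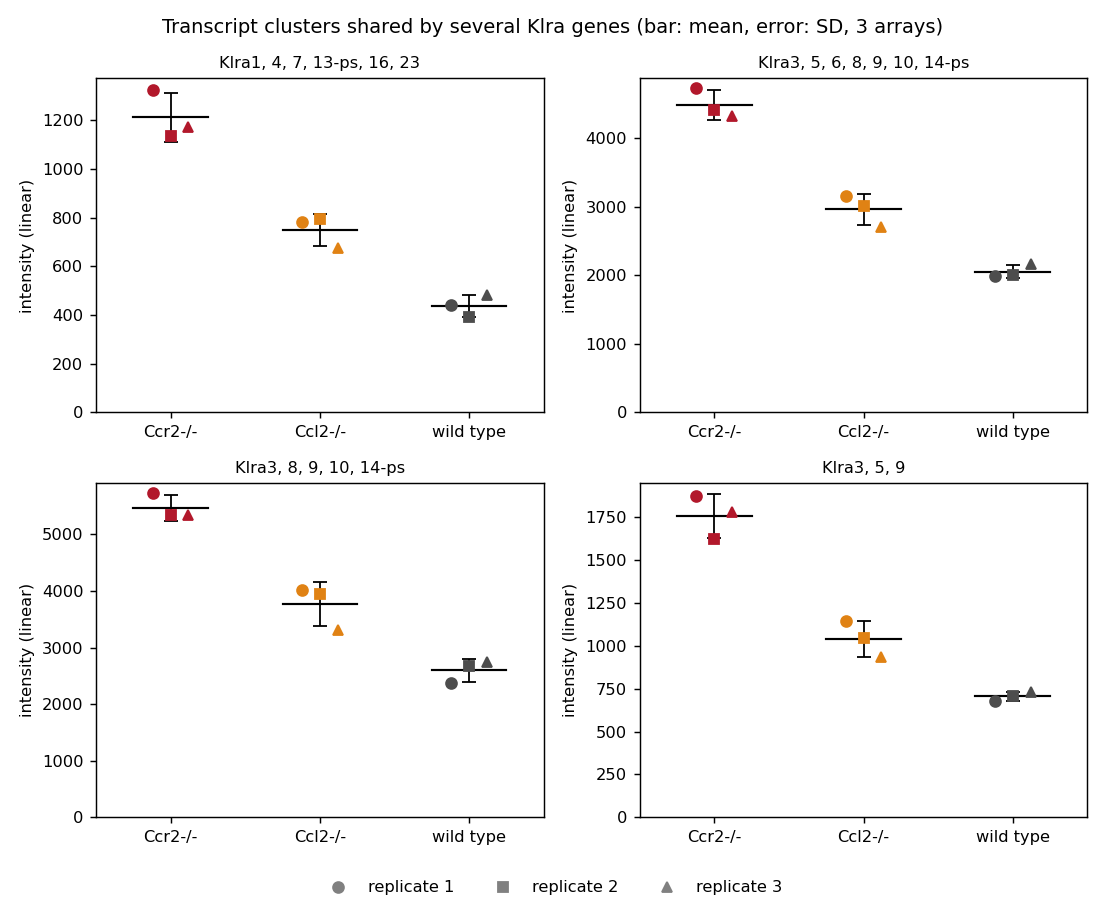
Linear intensity (y axis, from 0, a separate scale in each panel) of the 4 transcript clusters that carry several Klra symbols, on each array of Ccr2-/-, Ccl2-/- and wild type monocytes; bars are means and error bars SD of 3 arrays. In every panel the Ccr2-/- arrays are highest, the Ccl2-/- arrays between and the wild type arrays lowest.

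Counted over these 7 clusters, all 7 had every Ccr2-/- array above every wild type array, where 14.6% of all clusters did so. The 4 shared clusters had a median log2 change of 1.22, against 0.03 over all clusters. The 3 genes and the 4 shared clusters were called in Ccr2-/- against wild type under every alternative run, with Klra3 at adjusted p of 2.96e-05 to 0.00482, Klra5 at 0.000135 to 0.00762, Klra8 at 0.000131 to 0.0075 and the shared clusters at no more than 0.0157. In bulk RNA, fewer or more cells of a type and less or more RNA per cell cannot be told apart.

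The Klra genes outside the 6 did not all move this way. Klra6, annotated as Ly49F, had intensities of 358, 364 and 401 on the Ccr2-/- arrays, 208, 219 and 209 on the Ccl2-/- arrays, and 151, 149.7 and 221 on the wild type arrays. Its fold in Ccr2-/- over wild type cells was 2.19 (limma adjusted p = 0.0014). Klra17, which encodes Ly49Q of plasmacytoid dendritic cells and myeloid cells, had 143, 132 and 105 on the Ccr2-/- arrays, 99, 98 and 93 on the Ccl2-/- arrays, and 104, 100.4 and 108 on the wild type arrays. The Ccr2-/- and wild type arrays overlapped, and Klra17 did not pass the test (1.2-fold, limma adjusted p = 0.179).

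Klra2, which encodes Ly49B and is known from myeloid cells, was lower. Its intensities were 1366, 1288 and 1464 on the Ccr2-/- arrays, 1653, 1821 and 2167 on the Ccl2-/- arrays, and 2272, 2181 and 2250.4 on the wild type arrays. The genotypes did not overlap and ran in the opposite order to Klra3, with wild type highest. Klra2 was 0.614-fold of wild type in Ccr2-/- cells (95% interval 0.521 to 0.722, limma adjusted p = 0.00263), and 8.38% of all genes were called lower in this comparison. Its adjusted p was 0.000465 to 0.0227 over the alternatives.

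**Figure D3:**
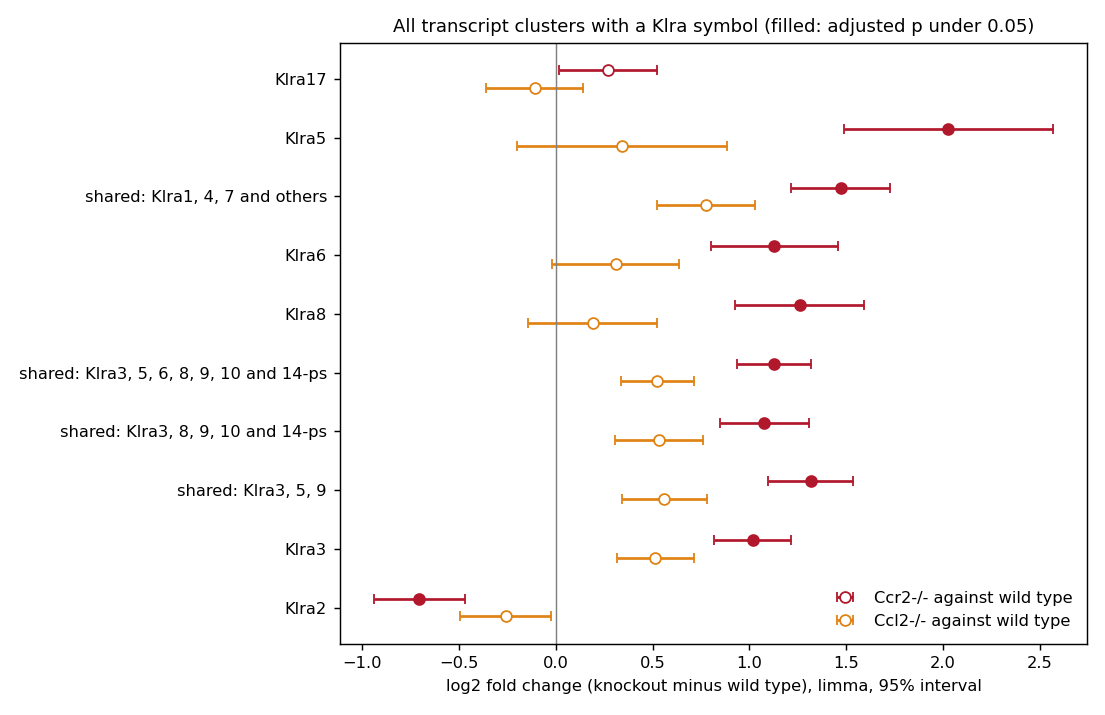
Log2 fold change of each knockout over wild type (x axis) with its limma 95% interval for the 10 transcript clusters that carry a Klra symbol, in the order of their array identifiers (y axis); filled points have an adjusted p under 0.05 (over all genes for single genes, over all clusters for shared ones). In Ccr2-/- cells 8 are filled on the right and Klra2 alone is filled on the left, and no point is filled in Ccl2-/- cells.

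In Ccl2-/- against wild type monocytes none of the 3 genes passed the adjusted test with limma, and 1, Klra3, had an unadjusted p under 0.05. The background was low here as well, with 0.0752% of all genes and 0.0225% of all clusters called higher at the adjusted threshold, and 6.78% of all genes higher at the unadjusted one. Klra3 was 1.43-fold of wild type (95% interval 1.24 to 1.64, unadjusted p = 0.000301, limma adjusted p = 0.0681), with all 3 Ccl2-/- arrays above all 3 wild type arrays. The fold of Klra5 was 1.27 (95% interval 0.871 to 1.85, limma adjusted p = 0.516) and that of Klra8 was 1.14 (95% interval 0.907 to 1.44, limma adjusted p = 0.54). These intervals hold no change as well as a fold like that of Klra3, so a difference was not detectable for them with 3 arrays per group. The median log2 change of the 3 genes was 0.34, against 0.08 over all genes. By size alone (a ratio of group means over 1.2 and a difference over 100), Klra3 and the 4 shared clusters were past the limits, as were 7.84% of genes and 8.97% of clusters.

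The shared clusters of Ccl2-/- cells had folds at or above that of Klra3. Their folds over wild type were 1.71 for the cluster with Klra4 and Klra7, 1.47 for Klra3, Klra5 and Klra9, and 1.45 and 1.44 for the clusters with 5 and 7 symbols. Without Ccl2-/- replicate 1 these folds were 1.68, 1.40, 1.40 and 1.39. The limma adjusted p with all arrays was 0.102 to 0.169 over all clusters, so 0 of 4 were called, and all 4 had an unadjusted p under 0.05 (5.09% of all clusters were higher at that threshold). Of the 7 clusters, 5 had every Ccl2-/- array above every wild type array, which 8.16% of all clusters did.

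Ccl2-/- replicate 1 had the lowest Klra5 and Klra8 intensities of its group and at the same time the highest for Klra3. Without it, the log2 change of Ccl2-/- over wild type was 0.45 for Klra3 (limma adjusted p = 0.097), 0.62 for Klra5 (0.188) and 0.36 for Klra8 (0.202), against 0.52, 0.34 and 0.19 with it. Klra3 crossed the threshold without Ccl2-/- replicate 3 (adjusted p = 0.0216), with a variance trend on intensity (0.0111) and with an offset of 50 before log2 (0.0494). Over all alternatives its adjusted p in this comparison was 0.0111 to 0.351.

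Set directly against each other, Ccr2-/- exceeded Ccl2-/- monocytes for all 3 genes, and 0.732% of all genes were called higher in this comparison. Klra5 was 3.22-fold of Ccl2-/- (95% interval 2.21 to 4.68, limma adjusted p = 0.0159), Klra8 2.10-fold (1.67 to 2.64, adjusted p = 0.0154) and Klra3 1.42-fold (1.23 to 1.63, adjusted p = 0.0242). The shared clusters were 1.46-fold to 1.69-fold higher, and 3 of 4 passed over all clusters, where 0.113% of clusters were called higher. The exception was the cluster of Klra3, Klra8, Klra9, Klra10 and Klra14-ps (adjusted p = 0.0583). The arrays of the genotypes did not overlap in 7 of 7 clusters, which held for 7.34% of all clusters. Among the other Klra genes, Klra6 was higher (1.76-fold, limma adjusted p = 0.0245), and Klra2 (0.734-fold, adjusted p = 0.055) and Klra17 (1.30-fold, adjusted p = 0.111) did not pass.

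The calls of this direct comparison depended on the fit and on single arrays. In a fit of the 6 arrays compared, the limma adjusted p was 0.113 for Klra3, 0.0864 for Klra5 and 0.0874 for Klra8, and with the replicate number as a block Klra3 was at 0.0659. Of the shared clusters, 0 passed in either of these fits or with the arrays centred on their medians. Without Ccl2-/- replicate 1 they stood, with log2 changes of 0.56 for Klra3 (limma adjusted p = 0.0125), 1.41 for Klra5 (0.00606) and 0.90 for Klra8 (0.00536). Without Ccr2-/- replicate 1 the adjusted p was 0.114 for Klra3, 0.0793 for Klra5 and 0.0774 for Klra8, and without Ccr2-/- replicate 2 it was 0.0888, 0.0771 and 0.0771. Klra3 also missed the threshold without wild type replicate 2 (0.0547) or 3 (0.051), Ccl2-/- replicate 2 (0.0647) or 3 (0.0649) and Ccr2-/- replicate 3 (0.0627). The shared clusters went to 0 calls without any 1 of the 8 arrays other than Ccl2-/- replicate 1, and to 2 without that array. Klra6 missed the threshold without either of Ccl2-/- replicates 2 and 3 (0.0619 and 0.0696) or any of the Ccr2-/- arrays (0.0764 to 0.104). The direction of each of these values stayed the same.

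Since the Ly49 genes are NK cell genes, other markers of NK cells were read beside them. Of 20 markers, 19 were called higher and 0 lower in Ccr2-/- against wild type monocytes, with a median fold of 1.62, where 4.91% of all genes were called higher. Ncr1, an activating receptor of NK cells, was 1.61-fold (limma adjusted p = 0.000829), and Prf1 and Gzmb, which encode perforin and granzyme B of the killing machinery, were 1.69-fold and 1.72-fold (adjusted p = 0.000834 and 0.000884). The summed intensity of the 20 markers was 125523 to 128039 on the Ccr2-/- arrays, 96307 to 114119 on the Ccl2-/- arrays and 79339 to 85618 on the wild type arrays, in the same order as Klra3 and without overlap. In Ccl2-/- against wild type cells 0 of 20 were called and 16 had an unadjusted p under 0.05, with a median fold of 1.31. Without Ccl2-/- replicate 1 it was 0 called and 15 unadjusted, with a median fold of 1.26. With all arrays, 0.0752% of all genes were called higher in this comparison and 6.78% were higher at the unadjusted threshold.

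Each Ly49 gene was also read relative to the mean log2 level of these 20 NK markers on the same array. In Ccr2-/- over wild type the log2 change of Klra5 exceeded that of the NK markers by 1.34 (limma 95% interval 0.81 to 1.88), that of Klra8 by 0.58 (0.18 to 0.97) and that of Klra3 by 0.33 (0.15 to 0.52). The shared clusters exceeded it by 0.40 to 0.79, the highest being the cluster with Klra4 and Klra7. In each case the Ccr2-/- arrays did not overlap the wild type arrays, and the exact permutation p was 0.1 (two-sided, n = 3 against 3), the smallest possible. The mean hides a spread, as the folds of the single markers ran from 1.25 (Ccl5) to 2.30 (Fasl). Klra3 at 2.02-fold lay within this range, and Klra8 at 2.39-fold and Klra5 at 4.08-fold lay above it. Of the lectin-like receptors read below, Klrc3 (2.45-fold) and Klre1 (2.38-fold) also lay above it, and the others did not. The markers differ in brightness, with mean log2 levels in wild type cells of 13.65 for Ccl5 and 9.98 for Fasl. Klra5 (7.57) and Klra8 (8.23) were dimmer than both. The dim markers Cd160 (7.86) and Styk1 (8.56) were 1.36-fold and 1.46-fold. The part of brightness in these differences from the NK markers was not tested.

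In Ccl2-/- over wild type, the difference from the NK markers was 0.11 for Klra3 (limma 95% interval -0.08 to 0.30), -0.06 for Klra5 (-0.60 to 0.47) and -0.21 for Klra8 (-0.61 to 0.18), and each interval includes 0. The exact permutation p was 0.1, 1 and 0.5 for the 3 genes (two-sided, n = 3 against 3). For Klra5 the level minus the NK markers was -4.53 on Ccl2-/- replicate 1, -3.56 and -3.45 on the other Ccl2-/- arrays, and -4.04 to -3.65 on the wild type arrays, and for Klra8 it was -3.81, -3.10 and -3.10 on the Ccl2-/- arrays and -3.27 to -2.99 on the wild type arrays. In both genes the first Ccl2-/- replicate lay below every wild type array, while the other Ccl2-/- arrays lay above them for Klra5 and among them for Klra8. Without Ccl2-/- replicate 1 the differences were 0.11 for Klra3 (-0.09 to 0.32), 0.28 for Klra5 (-0.02 to 0.57) and 0.02 for Klra8 (-0.22 to 0.27). The cluster with Klra4 and Klra7 was the one shared cluster whose interval lay above 0, at 0.37 with all arrays (0.12 to 0.62) and 0.41 without Ccl2-/- replicate 1 (0.13 to 0.69).

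Klra2 minus the NK markers was lower in Ccr2-/- than in wild type cells, by -1.39 on the log2 scale (limma 95% interval -1.73 to -1.04), of which -0.70 is the change of Klra2 itself. In Ccl2-/- against wild type cells it was -0.66 (-1.01 to -0.32), and -0.51 without Ccl2-/- replicate 1 (-0.80 to -0.21). There Klra2 itself had a log2 change of -0.26 and did not pass the test (limma adjusted p = 0.341). The exact permutation p was 0.1 in both cases (two-sided, n = 3 against 3), the smallest possible.

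**Figure D4:**
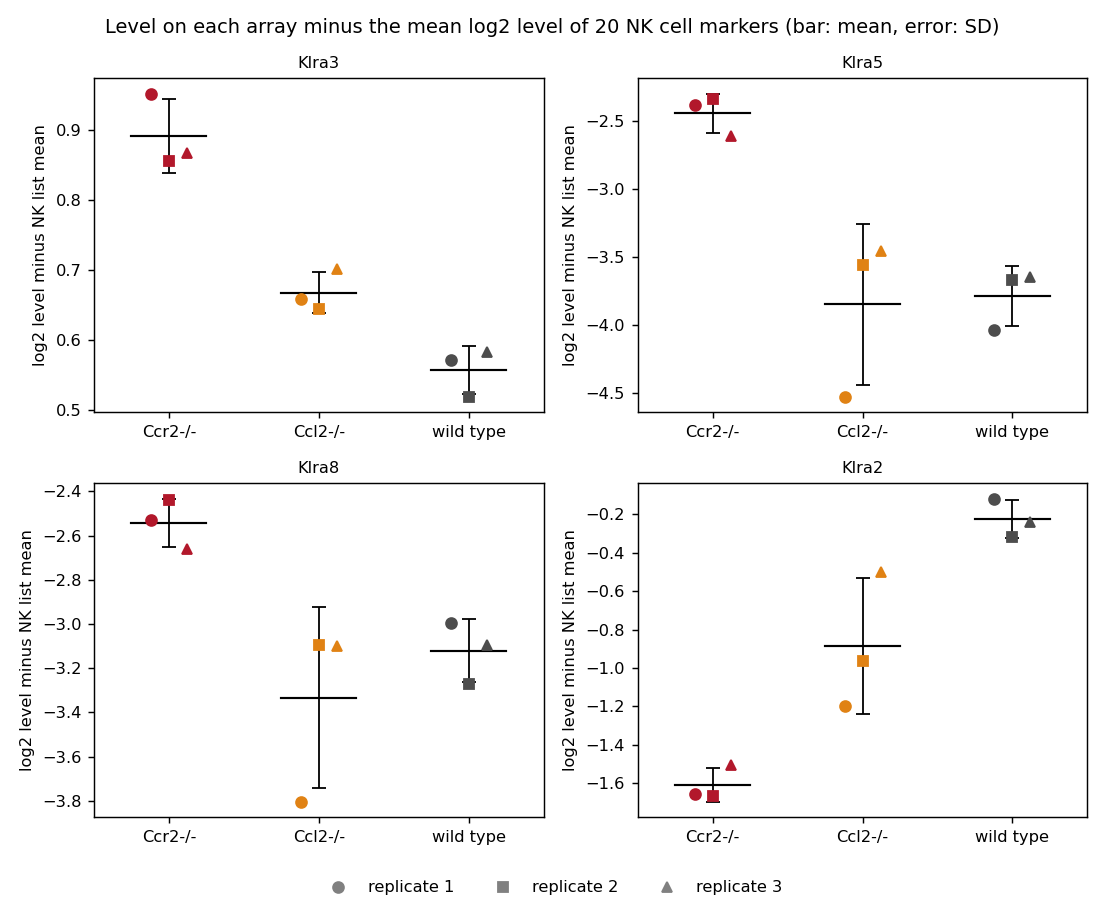
Log2 level of Klra3, Klra5, Klra8 and Klra2 minus the mean log2 level of 20 NK cell markers on the same array (y axis, a separate scale in each panel) for Ccr2-/-, Ccl2-/- and wild type monocytes; bars are means and error bars SD of 3 arrays. Against the NK markers the 3 Ly49 genes are highest in Ccr2-/- cells, Klra5 and Klra8 of Ccl2-/- cells overlap wild type, and Klra2 is lowest in Ccr2-/- cells.

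The other lectin-like receptors of the NK gene complex were read next. Of 15 genes, 13 were called higher and 0 lower in Ccr2-/- against wild type cells, with a median fold of 1.88, where 4.91% of all genes were called higher. The exceptions were Klrh1 and Cd69, an early activation marker of lymphocytes, each with a fold of 1.03 (limma adjusted p = 0.965 and 0.94). Klrc3, Klrc2 and Klrc1, which encode NKG2 receptors, were 2.45-fold, 2.10-fold and 2.00-fold of wild type (limma adjusted p = 0.000397, 0.000719 and 0.000746). Klre1, Klri1 and Klri2, which encode further receptors of this complex, were 2.38-fold, 2.05-fold and 1.76-fold of wild type. In Ccl2-/- against wild type cells 1 of 15 was called, Klrc1 (1.64-fold, limma adjusted p = 0.0493), and 13 had an unadjusted p under 0.05, with a median fold of 1.5. Over all genes, 0.0752% were called higher there and 6.78% were higher at the unadjusted threshold. Without Ccl2-/- replicate 1, 0 of 15 were called and the median fold was 1.39. Between Ccr2-/- and Ccl2-/- cells 1 of 15 passed, Klrc3 (1.55-fold, adjusted p = 0.0183), and 6 of 15 did without that array. With all arrays, 0.732% of all genes were called higher in Ccr2-/- than in Ccl2-/- cells.

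Of 12 listed genes for signalling by Ly49 and other NK cell receptors, 2 were called higher and 1 lower in Ccr2-/- against wild type cells. The median fold was 0.975. Over all genes 4.91% were called higher and 8.38% lower, so the 1 lower call is near the background. Zap70 and Syk are the kinases that bind phosphorylated adaptors such as DAP12. Zap70, also known from T cells, was 2.02-fold (limma adjusted p = 0.0012), whereas Syk, which many blood cells express, was 0.804-fold (adjusted p = 0.0135). Sh2d1b1, an adaptor of NK cells that is also among the 20 markers, was 1.33-fold (adjusted p = 0.0229). Tyrobp, which encodes DAP12 itself, had a fold of 0.921 (adjusted p = 0.282), Hcst, which encodes DAP10, 1.39 (0.0631), and Ptpn6, which encodes SHP-1, 0.868 (0.0838), and none of these passed. Monocytes express Tyrobp and Ptpn6 too. In Ccl2-/- against wild type cells 0 of 12 were called and 3 were higher at an unadjusted p under 0.05, with or without Ccl2-/- replicate 1. With all arrays, 6.78% of all genes were higher at that unadjusted threshold.

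On the ligand side, 4 of 7 listed genes had a cluster of their own, and 1 was called lower in Ccr2-/- against wild type cells, where 8.38% of all genes were. Tapbp, which encodes tapasin of the peptide loading complex, was 0.808-fold (limma adjusted p = 0.00794). B2m, the light chain of MHC class I, had a fold of 1.04 (adjusted p = 0.7), and the heavy chain genes H2-D1 and H2-K1 had no cluster of their own and were not analysed here. No ligand gene of 4 was called in Ccl2-/- cells, and 1 was lower at an unadjusted p under 0.05 (0 without Ccl2-/- replicate 1).

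Among 9 measured transcription factors of NK cells, 7 were called higher and 1 lower in Ccr2-/- against wild type cells, with a median fold of 1.69. Over all genes 4.91% were called higher and 8.38% lower, so the 1 lower call is near the background. Tbx21 and Eomes, the T-box factors of NK cell maturation, were 1.89-fold and 1.74-fold (limma adjusted p = 0.000772 and 0.00118), and Runx3 and Ets1 were 1.69-fold and 1.73-fold. Nfil3, needed early in NK cell development, was 0.788-fold (adjusted p = 0.0221). In Ccl2-/- cells 0 of these 9 were called against wild type, and 7 were higher at an unadjusted p under 0.05, with or without Ccl2-/- replicate 1. With all arrays, 0.0752% of all genes were called higher there and 6.78% were higher at the unadjusted threshold.

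Markers of other cells were read in the same way, beside 4.91% of all genes called higher and 8.38% called lower in Ccr2-/- against wild type cells. Of 14 T cell markers, 1 was called higher in Ccr2-/- against wild type cells, Cd247 (2.08-fold, limma adjusted p = 0.00389), a signalling chain that NK cells also use, and the median fold was 1.09. Their summed intensity was 21992, 15778 and 9765 on Ccr2-/- replicates 1, 2 and 3, 9403 to 13404 on the Ccl2-/- arrays and 11365 to 12149 on the wild type arrays. On the array with the lowest T cell sum of the Ccr2-/- group, replicate 3, Klra5 (685) and Klra8 (659) were also the lowest of that group and Klra3 (7598) was between the other arrays. The T cell sum of that array lay below every wild type array, while its Klra3, Klra5 and Klra8 lay above every wild type array. The part of T cell transcripts in these values was not tested. Of 10 measured monocyte markers, 7 were called lower and 0 higher in Ccr2-/- against wild type cells, Ccr2 among them, and their sum was 61976 to 65606 on the Ccr2-/- arrays, 78294 to 85426 on the Ccl2-/- arrays and 83030 to 87869 on the wild type arrays. The Ccl2-/- and wild type sums overlapped. Ccr2, the deleted gene, is itself in this sum. Without it the other 9 markers summed to 61295 to 64898 on the Ccr2-/- arrays, 71521 to 77603 on the Ccl2-/- arrays and 74728 to 78051 on the wild type arrays. The Ccr2-/- arrays were lowest in these sums as in Klra2, and the part of these markers in the level of Klra2 was not tested. Of the plasmacytoid dendritic cell markers 1 of 6, Tcf4, was called lower (0.802-fold, adjusted p = 0.0123), and of 5 B cell and 8 neutrophil markers 0 were called with limma (1 B cell marker and 0 neutrophil markers at an unadjusted p under 0.05).

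The genes whose pattern over the 9 arrays was most like the mean of Klra3, Klra5 and Klra8 were Cd200r4, Gimap7, Cldnd2, Samd3 and Ddx43. Likeness was the root mean square difference between log2 values, each centred on its mean over the arrays, and it was 0.11 for Cd200r4, which encodes a receptor of the CD200R family, 0.15 for Gimap7, a GTPase of lymphocytes, and 0.16 to 0.18 for the others. Taken singly, Klra3 was nearest to Gimap5 (0.04), another GTPase of that family, and Klra8 to Gimap7 (0.13). Klra5 had no neighbour as close: its nearest gene was Cd200r4 at 0.41. The measure is not scaled, so a larger change or a wider spread of the arrays can raise it. Of the 3 genes, Klra5 had the largest change in Ccr2-/- cells and the widest spread in each genotype. Gimap5 was 2.03-fold in Ccr2-/- and 1.44-fold in Ccl2-/- cells over wild type, beside 2.02-fold and 1.43-fold for Klra3. These are descriptions of 9 arrays that fall into 3 genotypes, with no test.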

How the data were processed

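RNA of monocytes pooled from 5 mice per sample was hybridised to Affymetrix Mouse Gene ST arrays, 3 for each of the genotypes Ccr2-/-, Ccl2-/- and wild type, and groups were taken from the sample labels. The authors processed the scans with dChip and deposited linear intensity values, 1 per transcript cluster and array; the version, the normalization, the expression model and the genome build are not given in the sources used here. Arrays have no read depth, and their number limits the precision. No step was applied between arrays. Values below 1 were set to 1 and log2 was taken. Of 35512 clusters, 21789 carried 1 gene symbol, 1621 several and 12102 none. For 999 genes with more than 1 cluster the brightest on average was used, which gave 19938 genes. Single genes were tested over these genes and shared Klra clusters over all clusters, with 1 fit of the 9 arrays in limma 3.58.1 (R 4.3.3), Benjamini-Hochberg adjustment and a threshold of 0.05 on the adjusted p. The script was tested on simulated data. Differences between genes on the same arrays were tested by exact permutation. Promoter windows were aligned with Biopython 1.88.

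Alternatives were quantile normalization, centring on the array median, a mean intensity over 100, an intensity trend, an offset of 50, the mean of a gene's clusters, 1 row per cluster, a block for the replicate number, a fit of only the 6 arrays compared, unadjusted p, the size limits of the study's methods (a ratio over 1.2 and a difference over 100, applied here to group means) and each array left out. Those for the shared clusters and for Klra2, Klra6 and Klra17, and lists without Ccl2-/- replicate 1 or without Ccr2, were chosen after seeing the data. The genes named are the 6 Ly49 genes, every other Klra gene with a cluster, up to 6 genes a list by smallest p in Ccr2-/- against wild type, genes that make up a small count, Tyrobp, and the genes of nearest pattern. The 6 genes and the lists were chosen with earlier results of these arrays known.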

Additional observations from a re-analysis of the deposited data

How the results depend on the processing

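In Ccr2-/- against wild type, 3 of 3 Ly49 genes and 4 of 4 shared clusters were called under every alternative. In Ccl2-/- against wild type, 0 of 3 genes became 1 with the intensity trend, the offset of 50, unadjusted p and the size limits, and 0 to 1 with an array left out. The 0 shared clusters became 2 with the trend, 4 with unadjusted p, 4 with the size limits, and 0 to 1 with an array left out. In Ccr2-/- against Ccl2-/-, 3 genes became 0 in the fit of the 6 arrays compared, 2 with 1 row per cluster, 2 with the replicate block and 0 to 3 with an array left out. The 3 shared clusters became 0 with median centring, 0 in the fit of 6 arrays, 0 with the replicate block, and 0 to 2 with an array left out. They became 2 with quantile normalization, and 4 with a mean intensity over 100, the trend, the offset, unadjusted p and the size limits. A fit of 6 arrays has fewer residual degrees of freedom, and the cause of the other shifts was not tested. No log2 change of the 3 genes with a cluster of their own or of the shared clusters changed sign.

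The sample labels do not say what same-numbered arrays share. Deviations of same-numbered arrays from their group means correlated at -0.18 to 0.562, and not every pair exceeded 0.1. The highest were between Ccl2-/- and wild type, for replicate 3 (0.562) and replicate 1 (0.344). Whether some same-numbered arrays shared a batch was not tested. With the replicate block, Klra3 in Ccr2-/- against Ccl2-/- went to an adjusted p of 0.0659, the same comparison kept 2 genes, and the other 2 comparisons kept their counts of calls.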
